A study of Mus musculus with 20 samples.

Results

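Syndecans and the hyaluronan genes are 9 of the 31053 genes listed in a single-cell RNA sequencing (scRNA-seq) series of mouse interscapular brown adipose tissue (iBAT): *Sdc1*, *Sdc2*, *Sdc3*, *Sdc4*, *Has1*, *Has2*, *Ugdh*, *Tnfaip6* and *Vcan*. The members were found by their gene symbol alone, and all 9 were listed. The stromal vascular cells of 10 experiments were split with magnetic beads into cells that carried a blood lineage marker (Lin+: CD5, CD11b, B220, Gr-1, 7-4 or Ter-119) and cells that did not (Lin-), which gave 20 libraries, each from 3 to 4 pooled mice aged 8 to 14 weeks. Male C57BL/6J mice lived at 24 °C (room temperature, RT), spent 4 days at 6 °C (cold), or were infused with the ADRB3 agonist CL316,243 (CL) at 0.75 nmol per hour for 4 days, with 2 experiments per treatment. Female mice of the *Adrb1* line were Adrb1 fl/fl; Pdgfra-CreER -/- (WT) or Adrb1 fl/fl; Pdgfra-CreER +/- (KO), with 1 experiment each at RT and in the cold. All *Adrb1* line mice received tamoxifen, and the Pdgfra promoter directs the deletion to PDGFRA+ cells. In that line the RT libraries used version 3 of the 10x kit and the cold libraries version 2, and the study states that they were collected on different days. Temperature, kit and collection day therefore cannot be told apart within it.

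Hyaluronan is a long, unsulfated sugar chain that is extruded through the plasma membrane by hyaluronan synthases. *Has1* and *Has2* encode these enzymes, *Ugdh* encodes UDP-glucose dehydrogenase, which makes the UDP-glucuronic acid they use, *Tnfaip6* encodes TSG-6, which transfers heavy chains of inter-alpha-inhibitor onto hyaluronan, and *Vcan* encodes versican, a large chondroitin sulfate proteoglycan that binds hyaluronan. Syndecans are membrane proteoglycans that carry heparan sulfate chains and act as co-receptors for growth factors and matrix. Adipose stromal cells are known as producers of this pericellular matrix, which loosens when tissue is remodelled.

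The genes lie on 7 chromosomes of the mm10 build (GENCODE vM21), each as a protein-coding gene. *Sdc1* is on chromosome 12 from 8771323 to 8793715 (plus strand). *Has1* is on chromosome 17 from 17843323 to 17855205 (minus strand). *Tnfaip6* is on chromosome 2 from 52038009 to 52056686 (plus strand). RefSeq (GRCm38.p6) promoter entries matched 7 of the 9 genes, all but *Sdc2* and *Has2*. The stretch upstream of the first annotated start is shown for 3 genes whose cold values in ASC1-like cells are described in depth below, *Has1*, *Sdc1* and *Tnfaip6* (the last not past the threshold in the C57 libraries), 5′ to 3′ on the strand of the gene. Capitals mark the motifs that were searched on both strands: the cAMP response element (TGACGTCA), the AP-1 site (TGAGTCA) and the GC box (GGGCGG).
Has1, chr17:17855206-17855438, minus strand: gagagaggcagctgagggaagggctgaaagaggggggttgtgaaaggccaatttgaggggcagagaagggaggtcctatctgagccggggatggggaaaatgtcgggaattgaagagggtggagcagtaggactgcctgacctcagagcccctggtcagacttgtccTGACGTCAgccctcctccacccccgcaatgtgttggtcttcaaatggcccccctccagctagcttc
Sdc1, chr12:8771146-8771322, plus strand: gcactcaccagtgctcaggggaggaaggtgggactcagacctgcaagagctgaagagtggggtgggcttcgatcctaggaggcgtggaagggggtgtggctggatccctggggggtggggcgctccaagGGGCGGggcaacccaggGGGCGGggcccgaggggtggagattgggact
Tnfaip6, chr2:52037863-52038008, plus strand: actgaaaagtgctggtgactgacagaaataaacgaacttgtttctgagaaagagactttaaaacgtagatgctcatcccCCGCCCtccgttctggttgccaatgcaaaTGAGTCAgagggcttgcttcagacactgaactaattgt
The 233 bases of *Has1* held 1 cAMP response element, which 1.32% of the 32851 RefSeq mouse promoters also held in the same window. The 177 bases of *Sdc1* held 2 GC boxes, a motif found in 20.6% of promoters over that window. The 146 bases of *Tnfaip6* held 1 AP-1 site (2.43% of promoters) and 1 GC box, read as CCGCCC on this strand (16.1%). These matches describe letters only.

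Libraries differed in quality before any comparison. After the study's filters, 66339 Lin- and 59935 Lin+ cells remained, and median depth per library ran from 1203 to 4357 counts per cell. The RT replicate 2 Lin- library kept 27.96% of its barcodes, because 72.01% had over 10% mitochondrial counts. The Lin+ and Lin- libraries of CL replicate 2 shared 1098 barcodes, 17.1% of the smaller library against 0.906% given by the number of possible barcodes, so the CL tests were repeated without those cells. That Lin+ library held 944 stromal cells (median 593 counts), of which 893 carried such a barcode. Its Lin- partner held 1222 ASC1-like cells (defined below, median 4080 counts), of which 215 did and were left out in the repeat. To which fraction the shared cells belong was not tested. *Adrb1*, the gene deleted in the KO, was found in the WT stromal cells (ASC1-like, ASC2-like and ASC3-like together) at 14 counts at RT against 60 in the cold. The KO libraries held 1 and 7 counts.

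Cells were clustered anew, and classes were named from marker lists. The ASC1-like class held 15000 Lin- cells, the ASC2-like class 12397 and the ASC3-like class 9205, after 3 adipose stromal cell (ASC) subtypes of the study. The ASC1 markers (such as *Cxcl14*, *Bmper* and *Lpl*), ASC2 markers (such as *Pi16* and *Dpp4*) and ASC3 markers (such as *Gdf10* and *Fbln1*) each summed highest in the class of that name, among these 3 classes, in every C57 group. The vascular endothelial (VEC-like) class held 12092 Lin- cells and the mural class 3737, and the Lin+ fraction held 12057 macrophage-like and 5743 monocyte-like cells. In the C57 libraries the ASC1-like class changed its make-up with treatment. At RT it was 47.1% cluster 15 and 43.1% cluster 9, both with 7 of 7 ASC1 markers raised. These were single libraries: cluster 15 held 91.5% of RT replicate 1 and 0.1% of RT replicate 2, and cluster 9 held 2.1% and 86.4%. In the cold it was 53.9% cluster 1, which had 3 of 7 raised and was led by the chemokine and interferon genes *Cxcl10*, *Ccl2* and *Cxcl9*, and 33.9% cluster 0. With CL it was 73.9% cluster 0. In the *Adrb1* line at RT, cluster 0 held 84.8% (WT) and 83.7% (KO) of the class. Levels below are CPM, counts scaled to a total of 1000000 over all genes in a class of a library. They are not divided by gene length and are not compared between genes.

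At RT the hyaluronan genes were concentrated in ASC2-like cells, while each syndecan had its own distribution. *Has1*, whose product is one of the membrane synthases, stood at 348 and 530 CPM in the 2 RT libraries of ASC2-like cells. In ASC3-like cells it stood at 54.6 and 89.2 CPM. In ASC1-like cells it stood at 7.71 and 7.22 CPM. The gene is among those that lead ASC2-like cluster 5, although no member was used for clustering. Classes come from clusters of the same cells, so these levels between classes are a description. Cluster 5 held 2.7% and 50.2% of ASC2-like cells in the RT libraries, with *Has1* at 549.6 CPM in it, 332 CPM in cluster 6 and 414 CPM in cluster 7 at RT. The 3 stromal classes did not overlap, and a cluster led by *Cilp* and *Thbs4* (118 and 123.2 CPM) lay between ASC2-like and ASC3-like cells. *Has1* in ASC1-like cells was within the range of VEC-like (5.94 and 14.6 CPM) and mural cells (4.74 and 19.1 CPM), so those neighbours did not differ beyond their spread. *Has2*, the other synthase, ranked the same way among stromal subtypes, with 63.8 and 51.9 CPM in ASC2-like, 13.6 and 12.6 CPM in ASC3-like, and 2.29 and 5.99 CPM in ASC1-like cells. *Ugdh* read 1001 and 1029 CPM in ASC2-like cells, against 221 and 267 CPM in ASC3-like and 67.5 and 47.0 CPM in ASC1-like cells. *Tnfaip6* also peaked in ASC2-like cells at 721 and 725 CPM, with 299 and 257 CPM in ASC3-like and 196 and 130 CPM in ASC1-like cells. *Vcan* was highest in the *Cilp* cluster (209 and 242 CPM) and in ASC2-like cells (186 and 218 CPM), 2 neighbours whose libraries overlapped.

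The syndecans divided the tissue differently. *Sdc1* stood at 39.8 and 46.9 CPM in ASC1-like cells and at 7.64 and 7.67 CPM in ASC2-like cells, the reverse of the order for *Has1*. In mural cells *Sdc1* read 25.7 and 143 CPM, a spread too wide to place it above or below ASC1-like cells. The RT libraries held similar shares of mural cluster 12 (32.5% and 37.7%). Over both of them *Sdc1* was at 128 CPM in mural cluster 12 and at 13.1 CPM in mural cluster 13. *Sdc2* was found across the stroma, with 397 and 592 CPM in the *Cilp* cluster, 475 and 544 CPM in ASC1-like, 287 and 306 CPM in ASC2-like, and 320 and 330 CPM in ASC3-like cells. It had 0 counts in both RT libraries of macrophage-like cells and of monocyte-like cells. *Sdc3* was highest in macrophage-like cells (235 and 181 CPM), followed by dendritic-like (108 and 115 CPM) and, overlapping each other, VEC-like (70.4 and 91.5 CPM) and neutrophil-like cells (68.5 and 90.7 CPM), with 15.1 and 22.3 CPM in ASC1-like cells and at most 3.13 CPM in ASC2-like and ASC3-like cells. *Sdc4* was highest in Schwann-like cells (354 and 612 CPM), where the lower library fell within the range of macrophage-like cells (365 and 211 CPM). B cells stood at 131 and 125 CPM, within the range of ASC3-like cells (80.8 and 138 CPM).

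**Figure D1:**
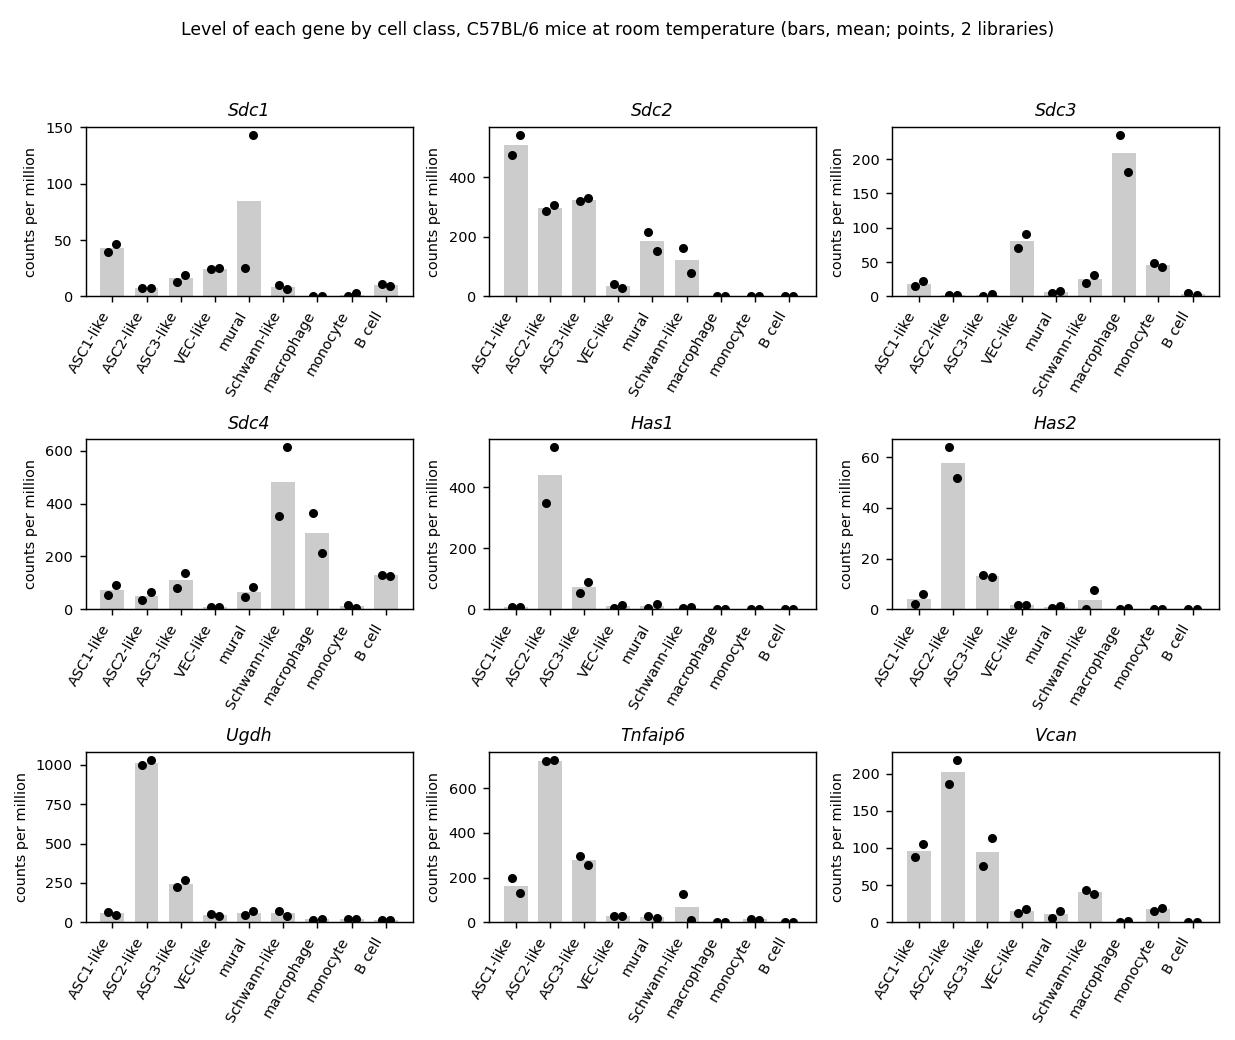
Level of each member in CPM (linear axis from 0) by cell class in the 2 C57BL/6J libraries at RT; bars are means and points are libraries. *Has1*, *Has2*, *Ugdh* and *Tnfaip6* stand highest in ASC2-like cells, *Sdc3* in macrophage-like cells, and the libraries of *Sdc2* spread over the stromal classes.

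Cold raised 3 members in ASC1-like cells: *Has1*, *Sdc1* and *Sdc3*. *Has1* went from 7.71 and 7.22 CPM at RT to 51.6 and 37.0 CPM in the cold, with 36.0 and 23.1 CPM under CL. *Sdc1* went from 39.8 and 46.9 CPM to 139 and 101 CPM in the cold, with 99.8 and 38.2 CPM under CL. *Sdc3* went from 15.1 and 22.3 CPM to 33.9 and 38.8 CPM in the cold, with 28.6 and 19.7 CPM under CL. For all 3 genes the cold libraries lay above both RT libraries, and under CL that held for *Has1* only. By edgeR's quasi-likelihood test with Benjamini-Hochberg adjustment over 12513 genes, the cold difference was 2.56 ± 0.26 (SE) on the log2 scale for *Has1* (5.91-fold, adjusted p = 0.000716). It was 1.58 ± 0.32 for *Sdc1* (adjusted p = 0.0125) and 1.12 ± 0.18 for *Sdc3* (adjusted p = 0.00503). Of all genes tested in this comparison 15.2% were called, and 3 of 9 members. The members' median difference was 1.12. Scaling between libraries largely fixes the median of all genes (0.01 here), and the members were chosen with earlier results of these data known. The contrast of these medians is therefore a description. CL raised 1 member, *Has1*, by 2.00 ± 0.28 (edgeR, adjusted p = 0.0118), where 1.31% of genes were called (3.04% with the replicate block, where *Has1* was again the 1 member called).

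The other members did not pass this test in the cold, yet most had higher values. *Tnfaip6* stood at 196 and 130 CPM at RT, 420 and 329 CPM after cold, and 443 and 309 CPM under CL, with no overlap of RT and treated libraries (edgeR, adjusted p = 0.0803 in the cold and 0.218 with CL). *Has2* stood at 2.29 and 5.99 CPM at RT against 8.13 and 7.38 CPM in the cold (edgeR, adjusted p = 0.0588). *Vcan* read 87.3 and 106 CPM at RT against 160 and 126 CPM in the cold (edgeR, adjusted p = 0.0943). These 3 genes passed in the cold once the replicate number entered the model as a block, which raised the members called from 3 to 6 and the share of all genes called from 15.2% to 21.5% (edgeR with the replicate block, adjusted p = 0.0406 for *Has2*, 0.043 for *Tnfaip6* and 0.0305 for *Vcan*). *Sdc2* read 475 and 544 CPM at RT, 261 and 233 CPM after cold, and 237 and 321 CPM under CL, lower in every treated library (edgeR, adjusted p = 0.126 in the cold). *Ugdh* (edgeR, adjusted p = 0.128) and *Sdc4* (0.331) also did not pass.

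The calls differed in how they held when 1 library was left out, which also lowered the count of all genes called in the cold. With 1 library left in a group, such a repeat cannot tell dependence on the dropped library from the smaller sample. *Has1* and *Sdc3* in the cold were called whichever library was left out. *Sdc1* was not called in the cold without RT replicate 1 (edgeR, adjusted p = 0.0529), RT replicate 2 (0.0953) or cold replicate 1 (0.0677). *Has1* under CL was not called without RT replicate 2 (edgeR, adjusted p = 0.0739), nor without the cells of CL replicate 2 whose barcode was in both fractions (1.75 on the log2 scale, adjusted p = 0.0925).

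Within the ASC1-like class *Sdc1* and *Has1* were also read by cluster. *Sdc1* was higher in the cold in each of the 4 clusters, from 33.7 to 98.3 CPM in cluster 0, 48.9 to 97.6 in cluster 9, 39.7 to 60.7 in cluster 15 and 50.8 to 131 in cluster 1, with the replicates pooled and no test. Single libraries stand behind several of these values: cluster 15 was RT replicate 1 (1407 of 1409 cells) against cold replicate 1 (92 cells), cluster 9 at RT was mostly RT replicate 2 (1256 of 1288 cells), and cluster 1 held 70 cells at RT. *Has1* in the cold was found mainly in cluster 1 (60.3 CPM) and cluster 0 (18.7 CPM), with 4.59 CPM in cluster 9. Cluster 1 made up 2.3% of the class at RT and 53.9% in the cold. RT values of *Has1* by cluster are not given here, so a difference within a cluster is not shown for it. *Sdc3* is not split by cluster here. The ASC1-like cells of the cold libraries also held more of other lists: the 6 proliferation markers summed to 115 to 208 CPM against 4.1 to 6.7 CPM at RT, and the 7 adipocyte differentiation markers to 488 to 988 CPM against 131 to 278 CPM. Immune markers summed to 2.3 to 3.4 CPM at RT and 7.2 to 8.0 CPM in the cold, and the 7 monocyte markers to 152 to 156 CPM at RT, 653 to 878 CPM in the cold and 243 to 298 CPM under CL. Other lists went down: the 7 ASC1 markers summed to 14807 to 18804 CPM at RT and 7718 to 7868 CPM in the cold. The 6 stromal markers summed to 27482 to 32360 CPM at RT and 17699 to 19990 CPM in the cold. The part of these lists in the members' differences was not tested.

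Shares of cells with a count were compared at equal depth. With each cell thinned to 1000 counts and shallower cells left out, *Sdc1* was found in 4.10% ± 0.54 (SD, n = 2) of ASC1-like cells at RT, 11.3% ± 1.9 in the cold and 6.41% ± 4.3 under CL. Without thinning these shares were 12.4%, 35.6% and 15.001%. *Has1* was found in 0.607% ± 0.013 at RT, 3.39% ± 0.49 in the cold and 2.49% ± 0.54 under CL (unthinned 1.79%, 11.1% and 5.46%). VEC-like cells of the same libraries gave 0.649%, 1.04% and 1.63% for *Has1*. The RT share in ASC1-like cells was not above that of VEC-like cells, and the cold share was. The CL shares lay closer together (2.49% ± 0.54 against 1.63% ± 0.30). Whether the VEC-like counts of *Has1* come from those cells was not tested. Shallower cells left out were 189 of 2991 ASC1-like cells (RT), 260 of 5818 (cold) and 198 of 2570 (CL). Of VEC-like cells 908 of 2420, 687 of 2030 and 4211 of 6119 were left out. Median depth was 1534 to 5547 counts in ASC1-like and 661 to 1875 counts in VEC-like cells of the C57 libraries.

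ASC2-like and ASC3-like cells gave no member past the threshold in the C57 libraries. *Sdc3*, at most 3.13 CPM there at RT, had larger cold estimates than in ASC1-like cells. They were 2.32 ± 0.61 on the log2 scale in ASC2-like (edgeR, adjusted p = 0.163) and 2.55 ± 0.98 in ASC3-like cells (0.536). ASC1-like against ASC2-like and ASC3-like responses gave -1.24 and -1.48 for *Sdc3*, not called (edgeR, adjusted p = 0.13 and 0.354). In ASC2-like cells *Has1* stayed at 389 and 400 CPM in the cold and 300 and 342 CPM under CL, within or below the RT range of 348 to 530 CPM. *Has2* read 33.0 and 22.9 CPM in the cold and 32.8 and 42.5 CPM under CL, below both RT libraries (edgeR, adjusted p = 0.222 in the cold). *Ugdh* read 1202 and 1040 CPM in the cold and 677 and 827 CPM under CL (edgeR, adjusted p = 0.928 and 0.912). Across all genes 0.888% were called in the cold and 0.0549% with CL in ASC2-like cells, whereas ASC3-like cells gave 0.23% and 0.163%. In ASC3-like cells *Has1* read 54.6 and 89.2 CPM at RT against 125 and 106 CPM under CL (edgeR, adjusted p = 0.305). *Tnfaip6* read 696 and 291 CPM there under CL against 299 and 257 CPM at RT, so a single library stood apart.

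**Figure D2:**
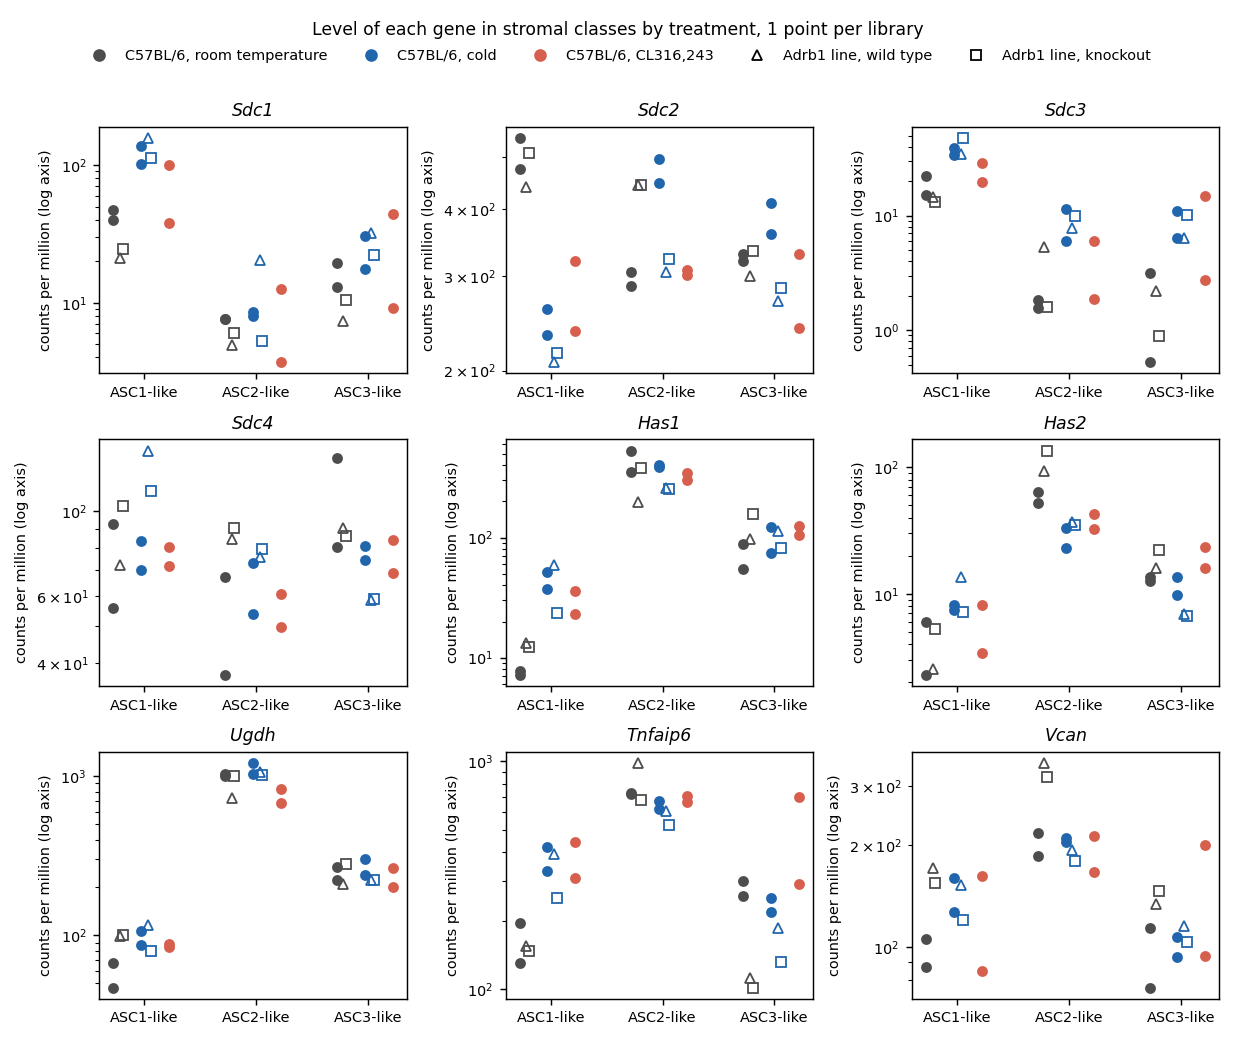
Level of each member in CPM (log axis) in the 3 stromal classes, by treatment; filled points are C57BL/6J libraries and open symbols are libraries of the Adrb1 line. In ASC1-like cells *Has1* and *Sdc1* stand higher in all 4 cold libraries than in the 4 RT libraries, while *Has1* in ASC2-like cells overlaps across treatments.

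The responses of the subtypes were compared in models that held both classes of each C57 library. The cold response of *Has1* was larger in ASC1-like than in ASC2-like cells by 2.55 ± 0.31 on the log2 scale (edgeR, adjusted p = 9.6e-05). That of *Has2* was larger by 2.43 ± 0.42 (edgeR, adjusted p = 0.00159), with values up in one class and down in the other. *Tnfaip6* differed by 1.41 ± 0.31 (edgeR, adjusted p = 0.00901) and *Sdc1* by 1.34 ± 0.30 (adjusted p = 0.0101). *Sdc2* differed the other way, by -1.68 ± 0.24 (edgeR, adjusted p = 0.000449), since its cold values were lower than RT in ASC1-like cells and higher in ASC2-like cells (448 and 496 CPM against 287 and 306 CPM). In all, 5 of 9 members differed where 10.1% of genes did. Against ASC3-like cells 4 of 9 differed (9.32% of genes): *Has1* by 1.91, *Tnfaip6* by 1.52, *Sdc4* by 0.58 and *Sdc2* by -1.21. For CL the responses of ASC1-like and ASC2-like cells differed for *Has1* alone, by 2.15 ± 0.33 (edgeR, adjusted p = 0.0054; 0.999% of genes). Without the cells of CL replicate 2 with shared barcodes that difference was 1.91 and not called (edgeR, adjusted p = 0.0683). No member differed between ASC1-like and ASC3-like cells under CL (0.746% of genes). The difference for *Has2* was not called without RT replicate 1 (edgeR, adjusted p = 0.152), that for *Tnfaip6* against ASC2-like cells without cold replicate 1 (0.158), and that for *Sdc1* without RT replicate 1 (0.148) or cold replicate 1 (0.0857). That for *Sdc4* was lost without any of the 4 libraries (edgeR, adjusted p = 0.144, 0.181, 0.251 and 0.0629).

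**Figure D3:**
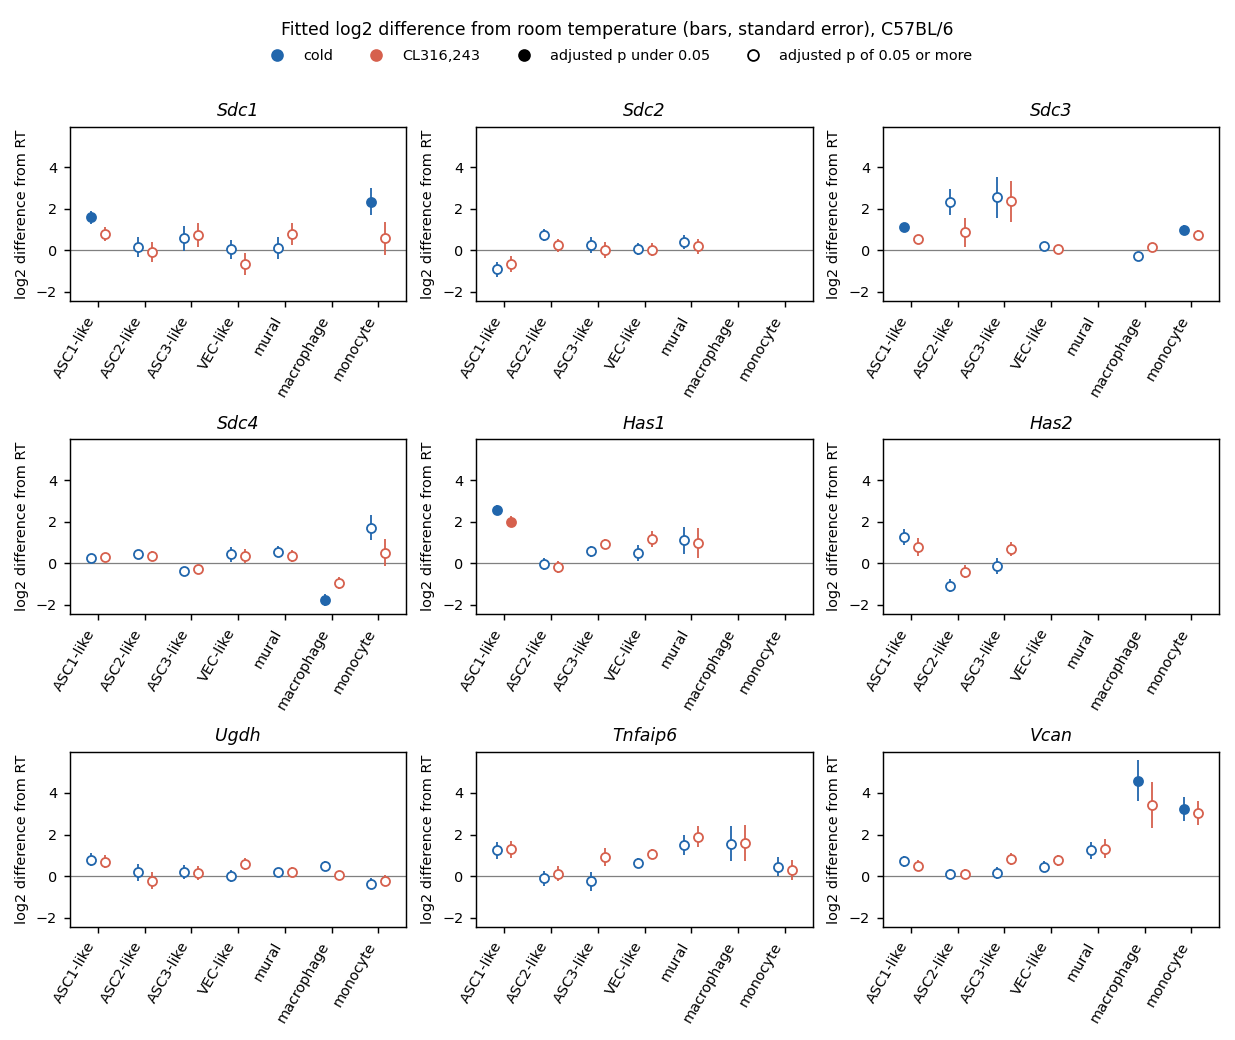
Fitted log2 difference from RT with its standard error for each member in 7 classes of the C57BL/6J libraries; filled points passed an adjusted p of 0.05, and genes too low to be tested in a class have no point. *Sdc1* in macrophage-like cells is left out because its RT libraries held 1 and 0 counts. ASC1-like and myeloid cells hold every filled point.

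Summing all stromal cells gave another picture, in which ASC2-like cells carried most counts of *Has1*, *Has2*, *Ugdh* and *Tnfaip6* at RT and 46.0% and 50.2% of those of *Vcan*. Of all stromal *Has1* counts, 86.5% and 88.6% lay in ASC2-like cells in the RT libraries, and 47.6% and 58.3% in the cold libraries. The share in ASC1-like cells was 3.5% and 1.4% at RT and 35.3% and 22.1% in the cold. Over the same libraries ASC2-like cells gave 29.5% and 35.1% of all stromal counts at RT, 7.85% and 13.3% after cold exposure, and 10.7% and 37.4% under CL. In the summed stroma *Has1* read 119 and 210 CPM at RT against 64.2 and 91.6 CPM in the cold, below both RT libraries (edgeR, log2 difference -0.91, adjusted p = 0.164). The direction was the opposite of that within ASC1-like cells. *Has2* read 22.01 and 24.4 CPM at RT against 7.74 and 9.46 CPM in the cold over all stroma (edgeR, adjusted p = 0.0648), also opposite. *Sdc1*, which was mainly in ASC1-like cells (82.4% and 73.4% of stromal counts at RT), kept its direction: 26.0 and 26.9 CPM at RT against 90.9 and 73.3 CPM in the cold (edgeR, adjusted p = 0.0825).

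**Figure D4:**
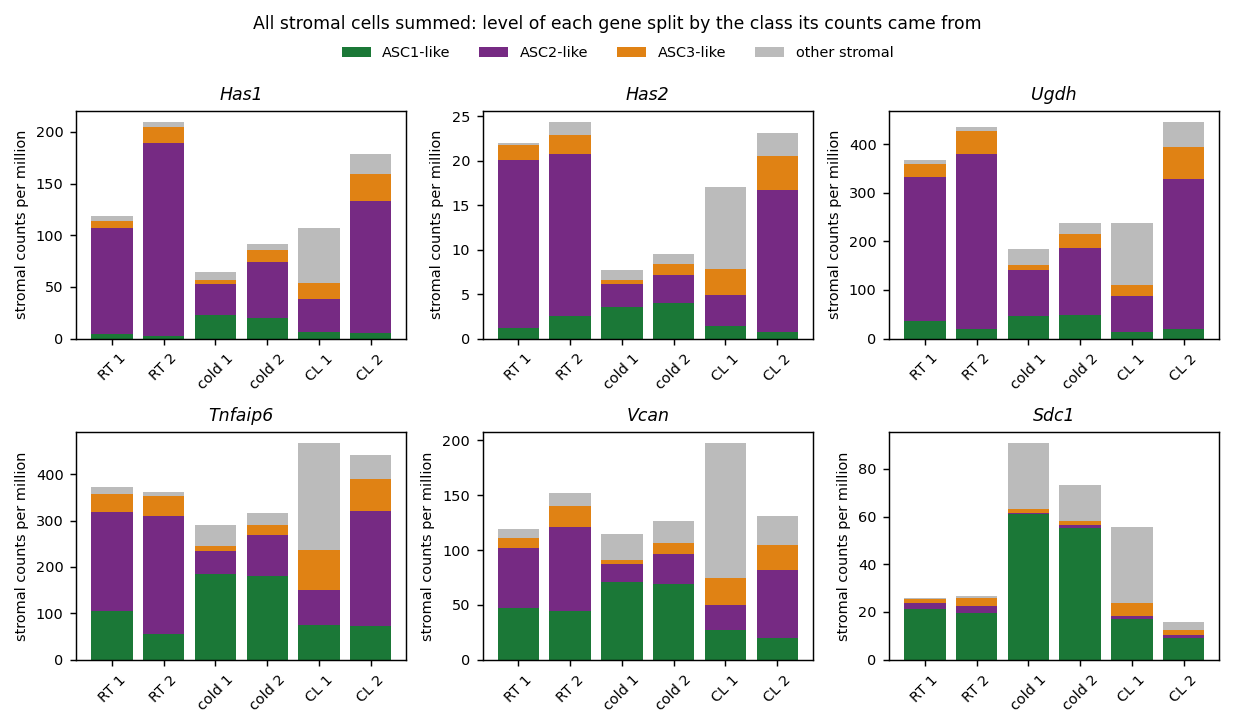
Level of 6 members over all stromal cells of each C57BL/6J Lin- library, in CPM, with each bar divided by the class that gave the counts (other stromal, proliferating, differentiating and unnamed clusters). The ASC2-like part of *Has1*, *Has2* and *Ugdh* is smaller in both cold libraries, and the ASC1-like part of *Has1* and *Sdc1* larger.

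Cold was also examined with the *Adrb1* line added, in a model of all 10 Lin- libraries with line and genotype as terms, in which 4 RT and 4 cold libraries carry the contrast and the 2 CL libraries share the estimate of spread. In ASC1-like cells 6 of 9 members were called, where 31.7% of all genes were. *Has1* rose by 2.23 ± 0.27 on the log2 scale (edgeR, adjusted p = 0.000225), *Sdc1* by 2.06 ± 0.30 (0.000681), *Has2* by 1.34 ± 0.33 (0.0118), *Sdc3* by 1.33 ± 0.18 (0.000495) and *Tnfaip6* by 1.20 ± 0.27 (0.00776). *Sdc2* fell by 0.99 ± 0.23 (edgeR, adjusted p = 0.00935). The C57 libraries are part of this fit, so it is not independent of the first. Kit version and collection day changed with temperature in the *Adrb1* line and are not terms of the model. Cold, kit and day therefore cannot be told apart in the part that this line adds. Of the 6 calls, that of *Has2* was lost without the WT RT library (edgeR, adjusted p = 0.0511) or the WT cold library (0.0605). In ASC2-like cells, where 6.87% of genes were called, *Has2* fell by 1.34 ± 0.24 (edgeR, adjusted p = 0.0111) and *Sdc3* rose by 1.72 ± 0.46 (0.048). Cluster 24 held 31.8% (WT) and 9.0% (KO) of this class at RT against 0.2% and 0.5% in the cold. The part of that shift was not tested. *Has2* in ASC2-like cells stood at 94.5 CPM in the WT and 136 CPM in the KO at RT, and at 36.9 and 34.7 CPM in the cold. That fall was not called without the KO RT (edgeR, adjusted p = 0.0635) or the KO cold library (0.0656), and the *Sdc3* call was lost without RT replicate 1 (0.0816), RT replicate 2 (0.0769), cold replicate 2 (0.0962), CL replicate 1 (0.0582), CL replicate 2 (0.0581), KO RT (0.199) or KO cold (0.197). In ASC3-like cells (6.86% of genes called) *Sdc3* rose by 2.28 ± 0.59 (edgeR, adjusted p = 0.0417) and *Sdc4* fell by 0.52 ± 0.14 (0.0441). For *Sdc3* the call was lost without RT replicate 1 (edgeR, adjusted p = 0.0635), RT replicate 2 (0.0561), cold replicate 2 (0.0755) or any library of the *Adrb1* line (0.132 to 0.211). For *Sdc4* it was kept only when RT replicate 1 was the one left out, and the other adjusted p ran from 0.0512 to 0.274.

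In the *Adrb1* line WT and KO had 1 library per temperature, so their values have no replicate check, and the intervals given (95%, exact Poisson) cover counting error only. *Has1* in ASC1-like cells read 12.8 CPM (7.8 to 19.8) in the WT and 12.0 CPM (6.9 to 19.5) in the KO at RT. In the cold it read 59.4 CPM (55.3 to 63.8) in the WT and 23.4 CPM (20.2 to 27.1) in the KO. *Tnfaip6* in the cold read 392 CPM (381 to 403) in the WT and 251 CPM (240.0 to 262) in the KO. *Sdc1* in the cold read 158 CPM (151 to 165) in the WT and 114 CPM (106 to 121) in the KO. *Sdc3* had the opposite order in the cold, 34.3 CPM (31.2 to 37.7) in the WT and 47.8 CPM (43.1 to 52.9) in the KO. For these 4 genes each cold value lay above the RT values of both genotypes. *Vcan* went the other way, from 171 CPM (151 to 192) at RT to 153 CPM (146 to 160) after cold in the WT and from 155 CPM (134 to 178) to 120.1 CPM (112 to 128) in the KO. Over both lines *Vcan* was not called (edgeR, 0.27 on the log2 scale, adjusted p = 0.384). *Ugdh* read 98.8 CPM (83.8 to 116) at RT and 117 CPM (111 to 123.1) after cold in the WT, against 101 CPM (84.4 to 119) and 79.4 CPM (73.2 to 85.9) in the KO.

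VEC-like and mural cells gave no member past the threshold. In VEC-like cells 8 of 9 members could be tested, *Has2* being too low. *Sdc3* stood at 70.4 and 91.5 CPM at RT, 99.4 and 83.3 CPM after cold, and 89.2 and 62.2 CPM under CL. *Tnfaip6* read 29.4 and 28.1 CPM at RT, 48.8 and 41.9 CPM after cold, and 64.2 and 48.0 CPM under CL, with no overlap but no call (edgeR, adjusted p = 0.352 and 0.206). The 6 stromal markers summed in VEC-like cells to 3118 to 4366 CPM at RT, 6534 to 7394 CPM after cold and 4380 to 5142 CPM under CL, and their part was not tested. Of all genes 0.366% were called in the cold and 0% with CL, where edgeR called 0 genes at the adjusted threshold, 935 had an unadjusted p under 0.05, and DESeq2 called 25. Cluster 3, a shallow cluster led by adipocyte genes beside *Kdr*, held 66.6% of the VEC-like cells of CL replicate 1 and 9.0% of those of CL replicate 2, against 113 of 1181 and 248 of 1239 cells at RT. In mural cells, where 7 members could be tested, *Tnfaip6* read 28.02 and 18.7 CPM at RT, 92.2 and 45.8 CPM after cold, and 137 and 49.3 CPM under CL. It was not called without a block (edgeR, adjusted p = 0.295 and 0.221) and was called with the replicate block (0.00607 in the cold and 0.00226 with CL), when 1.49% and 1.03% of all genes were. Mural cluster 12 held 35.5% of these cells at RT, 55.2% after cold and 57.1% under CL, and the part of that shift was not tested. The stromal markers summed there to 899 to 1428 CPM at RT, 1746 to 2260 CPM after cold and 1464 to 2701 CPM under CL, which was not tested either. Of all genes in mural cells 0.285% were called in the cold and 0% with CL, where 942 had an unadjusted p under 0.05 and DESeq2 called 66.

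In macrophage-like cells *Sdc1* and *Vcan* rose and *Sdc4* fell in the cold. *Sdc1* was found at 1 and 0 counts in the RT libraries (0.45 and 0 CPM), at 29.4 and 35.4 CPM in the cold and at 9.36 and 11.04 CPM under CL. The ratio of pooled CPM was 158 in the cold, with a counting interval of 28.3 to 6262 (95%), and 48.9 under CL (8.6 to 1944). Both contrasts passed the test (edgeR, adjusted p = 8.89e-05 and 0.00428, the latter 0.00441 without shared barcodes), although the CL call was lost without RT replicate 1 (0.0602) or RT replicate 2 (0.0518). *Vcan* read 0.45 and 1.09 CPM at RT, 29.6 and 7.99 CPM after cold, and 12.2 and 4.59 CPM under CL. It passed in the cold (edgeR, adjusted p = 0.00703), but not without RT replicate 1 (0.0851) or RT replicate 2 (0.0635). *Sdc4* read 365 and 211 CPM at RT, 94.5 and 66.1 CPM after cold, and 141 and 158 CPM under CL. It fell by 1.79 ± 0.29 on the log2 scale in the cold (3.45-fold lower, edgeR, adjusted p = 0.0017), a call that no left-out library ended. Of all genes 36.4% were called in the cold and 6.76% with CL in these cells, so 3 of 6 tested members in the cold stood beside a high background. With the replicate block *Sdc4* (edgeR, adjusted p = 0.0439) and *Vcan* (0.00707) were called under CL as well, which made 3 members in place of 1, where the share of all genes called went from 6.76% to 11%.

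In the C57 libraries the class changed its make-up here too. At RT 96.6% of macrophage-like cells were in cluster 6, led by *Cd209f* and *Cd163*. In the cold 66.6% were in cluster 0, led by *Spp1* and *Gpnmb*, and under CL 66.2% were in cluster 4, led by *Ccl8* and *Cd5l*. CL replicate 1 carried the last share: cluster 4 held 76.6% of its cells and 30.9% of those of CL replicate 2, where cluster 6 held 57.4%. *Sdc1* was at 46.1 CPM in cluster 0 in the cold and 42.5 CPM there under CL, against 7.35 and 6.11 CPM in cluster 4. *Sdc4* was at 282 CPM in cluster 6 at RT and 186 CPM in the same cluster in the cold, and at 84.4 CPM in cluster 0 in the cold. *Sdc3* was at 203 CPM in cluster 6 at RT, 205 CPM in cluster 6 in the cold and 156 CPM in cluster 0 in the cold. With cells thinned in the same way (45 of 4376 macrophage-like cells and 171 of 1143 T cells left out in the cold), *Sdc1* was found in 2.94% ± 0.69 (SD, n = 2) of macrophage-like cells in the cold and in 0.484% ± 0.45 of T cells of the same libraries, at median depths of 2862 to 5784 and 1092 to 2352 counts in the C57 libraries. The unthinned shares of these 2 classes were 11.9% and 0.756%. Thinned shares in the cold were higher in other Lin+ classes than in T cells. They were 1.39% ± 0.08 in B cells (373 of 1176 left out) and 0.901% ± 0.48 in monocyte-like cells (36 of 1037 left out). The 6 stromal markers summed to 29 to 41.0 CPM in macrophage-like cells at RT and 176 to 251 CPM in the cold, and the 7 monocyte markers to 591 to 947 CPM and 1558 to 1714 CPM. The part of both lists was not tested. *Sdc2*, the most widespread stromal member, stood at 0.26 and 0.09 CPM in the same cold libraries and *Has1* at 0.07 and 0.09 CPM.

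Among the immune classes named here, *Vcan* was highest in monocyte-like cells in each library. *Vcan* read 15.6 and 19.6 CPM at RT, 227 and 117 CPM after cold, and 269 and 60.1 CPM under CL. The gene is among those that lead monocyte cluster 3, although it was not used for clustering. Since classes come from clusters of the same cells, its level against other classes is a description. In that cluster alone it read 27.2 CPM at RT, 206 CPM in the cold and 187 CPM under CL, and cluster 3 held 55.1%, 84.6% and 78.9% of monocyte-like cells. The difference was 3.23 ± 0.57 in the cold on the log2 scale (edgeR, adjusted p = 0.00973). Under CL it was 3.05 ± 0.57 (edgeR, adjusted p = 0.0525, and 0.00202 with the replicate block). *Sdc1* (0.71 and 2.79 CPM at RT, 11.4 and 7.06 CPM in the cold) and *Sdc3* (48.4 and 42.2 CPM at RT, 85.2 and 103 CPM in the cold) also passed in the cold (edgeR, adjusted p = 0.0473 and 0.0259). *Sdc4* (18.2 and 4.00 CPM at RT, 54.8 and 19.8 CPM in the cold) passed only with the replicate block (edgeR, adjusted p = 0.0049 against 0.106). Of all genes 6.67% were called in the cold and 0.303% with CL, and 12.1% and 2.07% with the replicate block. The 7 macrophage markers summed in these cells to 1281 to 1414 CPM at RT and 2022 to 2339 CPM after cold, and the 6 stromal markers to 18.3 to 29.2 CPM and 87.3 to 210 CPM. A list led by *Gpnmb*, *Trem2* and *Spp1* summed to 138 to 169 CPM and 512 to 930 CPM, and the part of these lists was not tested. Each of the 3 cold calls was lost in some repeats that left out 1 library, which also lowered the count of all genes called. *Vcan* was lost without RT replicate 1 (edgeR, adjusted p = 0.143), RT replicate 2 (0.0708) or cold replicate 1 (0.0581). *Sdc1* (edgeR, adjusted p = 0.319, 0.102, 0.473 and 0.0783 without RT 1, RT 2, cold 1 and cold 2) and *Sdc3* (0.141, 0.133, 0.125 and 0.0895) were lost without any of the 4.

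**Figure D5:**
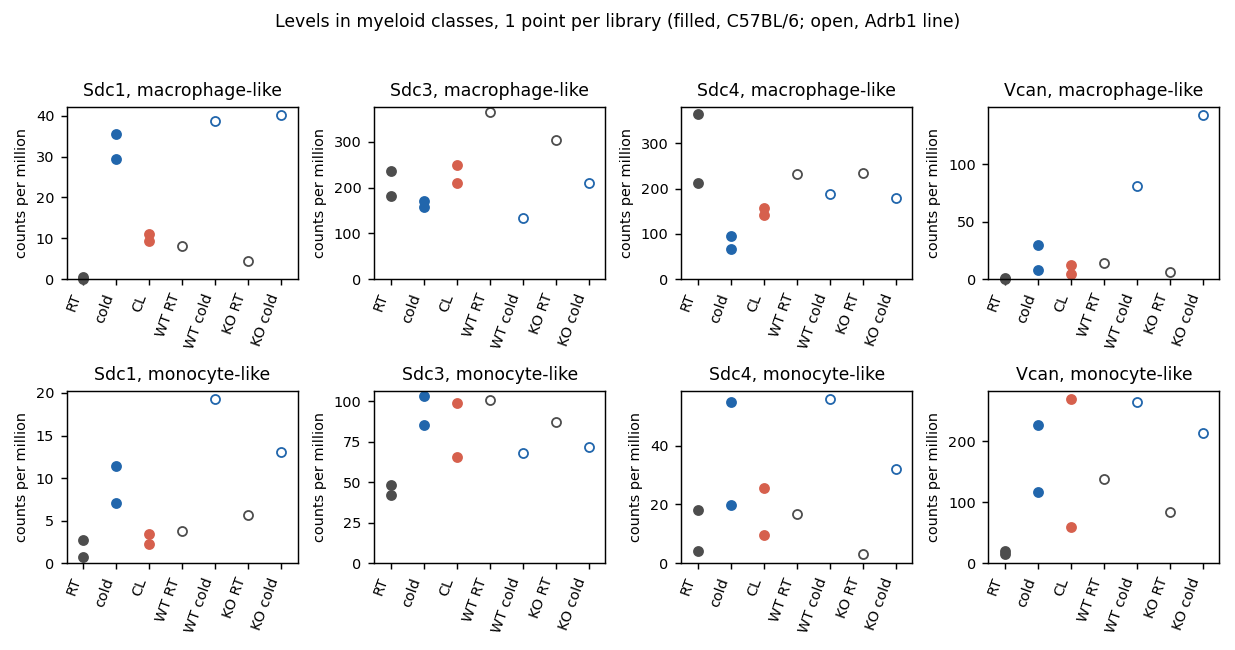
Levels of *Sdc1*, *Sdc3*, *Sdc4* and *Vcan* in CPM (linear axis from 0) in macrophage-like (top) and monocyte-like cells (bottom), 1 point per Lin+ library; filled points are C57BL/6J and open points the Adrb1 line. *Sdc1* in macrophage-like cells stands at 29.4 to 40.1 CPM in all 4 cold libraries and at 8.04 CPM or less at RT.

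The *Adrb1* line had 1 library per genotype and temperature. *Sdc1* in macrophage-like cells was at 8.04 (WT) and 4.43 CPM (KO) at RT, against 38.6 and 40.1 CPM in the cold. *Vcan* was at 14.0 and 5.92 CPM at RT against 80.7 and 143 CPM in the cold. *Sdc4* was at 232 and 235 CPM at RT against 189 and 179 CPM in the cold, closer together than in the C57 libraries. *Vcan* in monocyte-like cells was at 137 and 84.4 CPM at RT against 264 and 213 CPM in the cold. At RT *Sdc1* and *Vcan* in macrophage-like cells lay above both C57 libraries, which reached 0.45 and 1.09 CPM. *Vcan* in monocyte-like cells did too, with at most 19.6 CPM at RT in C57. Temperature, kit version and collection day cannot be told apart in this line. These libraries were described and not tested.

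Genes around the members were counted from 6 pathway lists in ASC1-like cells. The share of all genes called there was 15.2% in the cold and 1.31% with CL, and several lists lay near or below it. Of 11 tested genes of hyaluronan turnover and binding, 4 rose and 2 fell in the cold (median log2 difference 0.57). *Ptx3*, which encodes a pentraxin that binds TSG-6 in hyaluronan matrix, rose from 22 and 8.5 CPM to 170 and 138 CPM (edgeR, adjusted p = 0.00472). *Hmmr*, a hyaluronan receptor that is also a mitotic spindle gene, had 0 counts at RT, against 6.77 and 3.29 CPM in the cold, at least 16.1-fold higher over a floor of 3 counts for the group (edgeR, adjusted p = 0.00726). *Itih2*, a heavy chain of inter-alpha-inhibitor, fell from 6.05 and 10.5 CPM to 1.86 and 1.33 CPM (adjusted p = 0.00436). Among 11 genes of sugar nucleotide supply 1 rose and none fell (median 0.1), *Hk2*, a hexokinase, at 6.55 and 7.17 CPM and then 28.2 and 28.4 CPM (edgeR, adjusted p = 0.000818). Of 8 other heparan sulfate proteoglycans 2 rose and 2 fell (median -0.22). The 2 that fell were glypicans, *Gpc3* from 175 and 159 CPM to 28.5 and 20.3 CPM (edgeR, adjusted p = 0.00165) and *Gpc4* from 46.9 and 66.4 CPM to 21.2 and 20.3 CPM (0.00769). Of 21 genes of heparan sulfate chain synthesis 1 rose, the 6-O-sulfotransferase *Hs6st2* (median -0.08; edgeR, adjusted p = 0.0118). Of 14 genes of chondroitin sulfate synthesis 1 rose and 2 fell (median -0.24), among them the sulfotransferase *Chst7*, from 13.3 and 43.6 CPM to 5.81 and 4.39 CPM (edgeR, adjusted p = 0.00437). Of 11 syndecan partners, sheddases and versican proteases 2 rose and 1 fell (median 0.3). The other genes behind these counts, named after their values were seen, were the hyaluronan receptor *Cd44* and the hyaluronidase *Hyal2*, which rose, and the hyaluronidase *Hyal1*, which fell. *Agrn*, *Col18a1*, *Chst15*, the sheddase *Adam17* and the versican protease *Adamts4* rose, and *Csgalnact2* and *Cask* fell. Over both lines, where 31.7% of genes were called, the other heparan sulfate proteoglycans gave no rise and 4 falls (median -0.56), so *Agrn* and *Col18a1* were not called higher there. In that fit heparan sulfate chain synthesis gave 3 rises and 3 falls, and chondroitin sulfate synthesis 1 rise and 5 falls. With CL 2 genes of the 6 lists passed, *Hk2* (31.0 and 20.9 CPM; edgeR, adjusted p = 0.0087) and *Chst15* (37.4 and 29.9 CPM against 13.7 and 25.2 CPM at RT; 0.0476).

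The genes whose level tracked a member most closely were found over 42 points, 7 classes in 6 C57 libraries, that share their libraries, as Pearson's r of log2(CPM + 1) among 9488 genes. For *Has1* these were *Spsb1* (0.98), *Gfpt2* (0.98) and *Pamr1* (0.97). For *Tnfaip6* they were *Ptx3*, *C3* and *Lbp* (0.95 each). For *Sdc1* they were *Napa* (0.87) and *Mlf2* (0.86), and for *Vcan* they were *Prdx6* (0.87), *Glipr2* (0.85) and *Mgst1* (0.84). The points share libraries across classes, and no test was made.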

How the data were processed

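Libraries were prepared with 10x Genomics kits from Lin+ and Lin- stromal vascular cells. The authors aligned reads to mm10 and counted them with Cell Ranger 3.0.1, then removed free RNA with SoupX. The deposited matrices therefore hold estimated counts that need not be whole (97.2 to 99.6% of values above 0 were not). Cells were kept with at most 10% mitochondrial counts, at most 15000 counts, over 100 genes (Lin-) and at most 4000 genes (Lin+), after the study. For each fraction 2000 variable genes were picked with scanpy 1.11.5, with members, pathway genes, listed markers and mitochondrial genes left out. The 30 components were corrected for batch in the manner of Harmony, and clusters were found with leidenalg 0.10.2 (resolution 1). Same-numbered C57 libraries shared a batch. Each *Adrb1* line library was a batch of its own, so RT and cold of that line were corrected as separate batches. A class name needed at least 3 listed markers raised 1.5-fold. Some clusters led by genes outside the class (lymphatic, *Cthrc1*, *Cilp* or *Angptl7* among them) took no such name, while the shallow endothelial cluster 3 was kept for its 7 of 7 markers and left out in an alternative. Doublets were kept, and the top 6% of Scrublet scores were left out in an alternative. Counts were summed per class and library and rounded, since cells are not replicates, and tested with edgeR 4.0.16 (TMM, expression filter, quasi-likelihood test, two-sided, threshold 0.05), the 6 C57 libraries of a class sharing 1 estimate of the spread. The SE given for edgeR was derived as the size of the log2 difference over the square root of its F statistic. DESeq2 1.42.0 was an alternative. Scripts were tested on simulated data.

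The members, marker lists and pathway lists were chosen with earlier results of these data known. All members are named, from the lists up to 4 genes per direction that passed with treated libraries on 1 side of RT, and for 4 members the 3 most alike genes, of which 1 is not reported here. Each total of kept counts per library was 7857161 to 41979839. Same-numbered C57 libraries come from 1 replicate experiment by the study's methods, and the correlation of their deviations was 0.09 to 0.31 between RT and cold, -0.09 to 0.07 between RT and CL, and 0.09 to 0.41 between cold and CL. Replicates differed by more than sampling noise (chi-square per degree of freedom 8.4 to 62 where checked). Intervals cover counting error only.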

Additional observations from a re-analysis of the deposited data

Results flagged for a closer look

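The responses of ASC1-like cells differed from those of ASC2-like or ASC3-like cells in 10 comparisons, each made as an interaction in edgeR over all genes. Against ASC2-like cells the cold response differed by 2.55 on the log2 scale for *Has1*, 2.43 for *Has2*, 1.34 for *Sdc1*, 1.41 for *Tnfaip6* and -1.68 for *Sdc2*, and the CL response by 2.15 for *Has1*, which was not called without the cells with shared barcodes (1.91, adjusted p = 0.0683). Against ASC3-like cells the cold response differed by 1.91 for *Has1*, 1.52 for *Tnfaip6*, 0.58 for *Sdc4* and -1.21 for *Sdc2*. The ASC1-like class was made of different clusters at RT and after treatment, and the part of that change in these differences was not tested.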

How the results depend on the processing

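Of the repeats of the members' results under other settings 322 stood on the same side of the threshold with the same direction, 64 lost the call and 16 gained it. A further 6, all in the cold, reversed when all stromal clusters were taken as 1 class in place of ASC1-like cells: *Has1* (-0.91), *Has2* (-1.35), *Ugdh* (-0.82), *Tnfaip6* (-0.21), *Vcan* (-0.06) and *Sdc4* (-0.01). Of the lost calls, 54 came in repeats with 1 library left out. The other 10 lost calls came in repeats that dropped no whole library, and not all of them are named here. Low values of *Has1*, *Has2* and the myeloid *Sdc1* limit what depth can show.

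Counts of called genes by edgeR moved as follows, with the cause not tested. DESeq2 called 291 genes in ASC1-like CL, 59 in ASC2-like CL, 41 and 47 in ASC3-like cold and CL, 64 and 25 in VEC-like, 95 and 66 in mural, 323 and 79 in monocyte-like, 505 in ASC3-like over both lines, 452 and 43 for ASC1-like against ASC2-like and 420 and 42 against ASC3-like responses. With no filter the counts were 2907 and 803 (ASC1-like cold and CL), 473 and 270 (ASC2-like), 287 and 295 (ASC3-like), 461 and 343 (VEC-like), 347 and 299 (mural), 1990 (macrophage-like CL), 1077 and 414 (monocyte-like), 2060 and 1891 (ASC2-like and ASC3-like over both lines), and 380 and 326 for the CL differences. With the replicate block they were 380 (ASC1-like CL), 241 and 72 (ASC2-like), 68 and 64 (ASC3-like), 76 and 3 (VEC-like), 147 and 101 (mural), 1255 (macrophage-like CL), and 997 and 171 (monocyte-like). The block changed no call of a member other than those given with the results. Without the top 6% of Scrublet scores they were 10 (ASC2-like CL), 11 (ASC3-like CL), 1 (VEC-like CL), 1 (mural cold) and 14 (monocyte-like CL), and with all stroma as 1 class 61 in the cold and 0 with CL. Of the settings chosen after seeing the data, leaving out cells with shared barcodes gave 80 (ASC1-like CL), 3 (ASC2-like CL), and 30 and 41 for the CL differences against ASC2-like and ASC3-like cells, and leaving out the shallow endothelial cluster gave 3 (VEC-like CL).

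Leaving out 1 library gave 618 to 1012 calls in ASC1-like cold and 64 to 463 in CL, 13 to 158 and 9 to 112 in ASC2-like, 1 to 12 and 0 to 357 in ASC3-like, 0 to 0 and 0 to 243 in VEC-like, 6 to 152 and 0 to 293 in mural, 1825 to 3139 and 23 to 2088 in macrophage-like, and 0 to 443 and 0 to 365 in monocyte-like cells. Over both lines it gave 2229 to 3884, 118 to 1024 and 73 to 1291 in ASC1-like, ASC2-like and ASC3-like cells. For differences between responses it gave 529 to 837 and 71 to 264 (against ASC2-like), and 358 to 698 and 40 to 195 (against ASC3-like). Shares of ASC1-like cells without thinning, at RT, in the cold and under CL, were 1.786, 11.105 and 5.464% for *Has1*, 12.37, 35.61 and 15.001% for *Sdc1* and 29.964, 51.31 and 40.116% for *Tnfaip6*. Pooling both fractions was run for VEC-like and mural cells and not run for others, since the stromal cells of the Lin+ fraction were not split into subtypes and the myeloid cells of the Lin- fraction were mixed.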

Other observations

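Stromal clusters without a subtype name, and other classes outside the comparisons, also carried the members. A cluster led by *Lrrc15* and *Cthrc1* read 144 and 172 CPM for *Has1* and 323 and 619 CPM for *Ugdh* in the CL libraries. There *Tnfaip6* stood at 510 and 409 CPM and *Vcan* at 313 and 241 CPM. This cluster held 1322 cells in CL replicate 1 and 162 in CL replicate 2, of which 93 carried a barcode found in both fractions. The C57 RT libraries held too few of its cells (0 and 3) for a comparison, and the WT RT library of the *Adrb1* line held 89. Proliferating stromal cells in the cold read 84.1 and 94.1 CPM for *Sdc1* and 105 and 164 CPM for *Sdc2*. Differentiating cells in the cold read 37.1 and 48.0 CPM for *Sdc1*, 54.6 and 37.2 CPM for *Sdc2* and 7.62 and 3.43 CPM for *Has1*.

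Among the other Lin+ cells, *Sdc4* read 131 and 125 CPM in B cells at RT, against 97.5 and 95.03 CPM in the cold. *Vcan* in neutrophil-like cells read 6.73 and 5.78 CPM at RT, 60.3 and 11.6 CPM in the cold and 98.7 and 7.37 CPM under CL, so 1 library of each treatment stood apart.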
